A study of Mus musculus with 8 samples.

Results

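Cytochrome c oxidase, complex IV of the respiratory chain, passes electrons from cytochrome c to oxygen and pumps protons across the inner mitochondrial membrane. Its catalytic core is encoded by mitochondrial DNA, and nuclear-encoded subunits surround that core, stabilise it and adjust its activity. In rodents, subunits 6a, 7a and 8 each come as a form confined largely to heart and skeletal muscle (Cox6a2, Cox7a1, Cox8b) and a ubiquitous form (Cox6a1, Cox7a2, Cox8a). The 10 genes described here are these 6 isoform genes and Cox4i1, Cox5a, Cox5b and Cox6c. They were taken by gene symbol from the 19938 genes tested, with earlier results of these data known, and all 10 had a probe set carrying that symbol alone. Where a gene had several probe sets, the brightest on average across all 8 arrays was used.

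The samples were gastrocnemius muscles of 30-week-old mice on a low-fat chow diet, 4 from Hdac5 knockout mice (KO) and 4 from wild type littermates (WT), with no further treatment. Hdac5 encodes a class IIa histone deacetylase that holds back MEF2-driven transcription in muscle. The labels cite an earlier description of the knockout line and give neither the deleted part of the gene, the sex of the mice nor a tissue restriction of the deletion. The submitters asked what part HDAC5 plays in the transcription of interleukin 6 and the genes it regulates. The labels number the samples without stating that each is a different animal. The p-values therefore reflect sample-to-sample spread, which may be technical.

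Hdac5 signal was 8.32, 8.31, 8.31 and 8.39 in the KO samples, against 9.94, 9.76, 9.83 and 9.80 in the WT samples, on the log2 scale of the deposited values. It fell by 1.50 in KO (SE 0.059, limma adjusted p = 1.74e-07, exact permutation p = 0.0286, the smallest that 4 against 4 samples allow). The arrays had medians between 7.69 and 7.77 and correlated with each other at 0.988 to 0.995. Fast fibre genes were bright in every sample, the mean of the 14 measured lying between 14.27 and 14.32 in KO and between 14.30 and 14.34 in WT, and the highest value on any array was 14.84. A difference between the brightest probe sets can be compressed near that ceiling, and signals of different probe sets are not amounts of RNA that can be set against each other.

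None of the 10 genes changed at a limma adjusted p under 0.05 over all genes, a threshold that 0.0652% of all genes passed. Cox6a2, the muscle form of subunit 6a, came closest: its KO signal was 0.795 of the WT signal (95% interval 0.726 to 0.870), with an adjusted p of 0.0763. Cox8b, the muscle form of subunit 8, followed at 0.879 of the WT signal (0.812 to 0.953, adjusted p = 0.338), and Cox8a, its ubiquitous partner, stood at 0.875 (0.789 to 0.971, adjusted p = 0.467). At an unadjusted p under 0.05, these 3 of the 10 genes were lower in KO and 0 were higher, against 3.18% of all genes lower and 4.72% higher. Cox8a dropped out of this count without WT sample 3, at an unadjusted limma p of 0.0585. The mean was lower in KO for 9 of the 10 genes, against 48.6% of all genes, and this count of 9 was the same after quantile normalization and after centring each array on its median. The median difference of the 10 genes was -0.08, beside 0.003 over all genes, on the log2 scale.

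**Figure D1:**
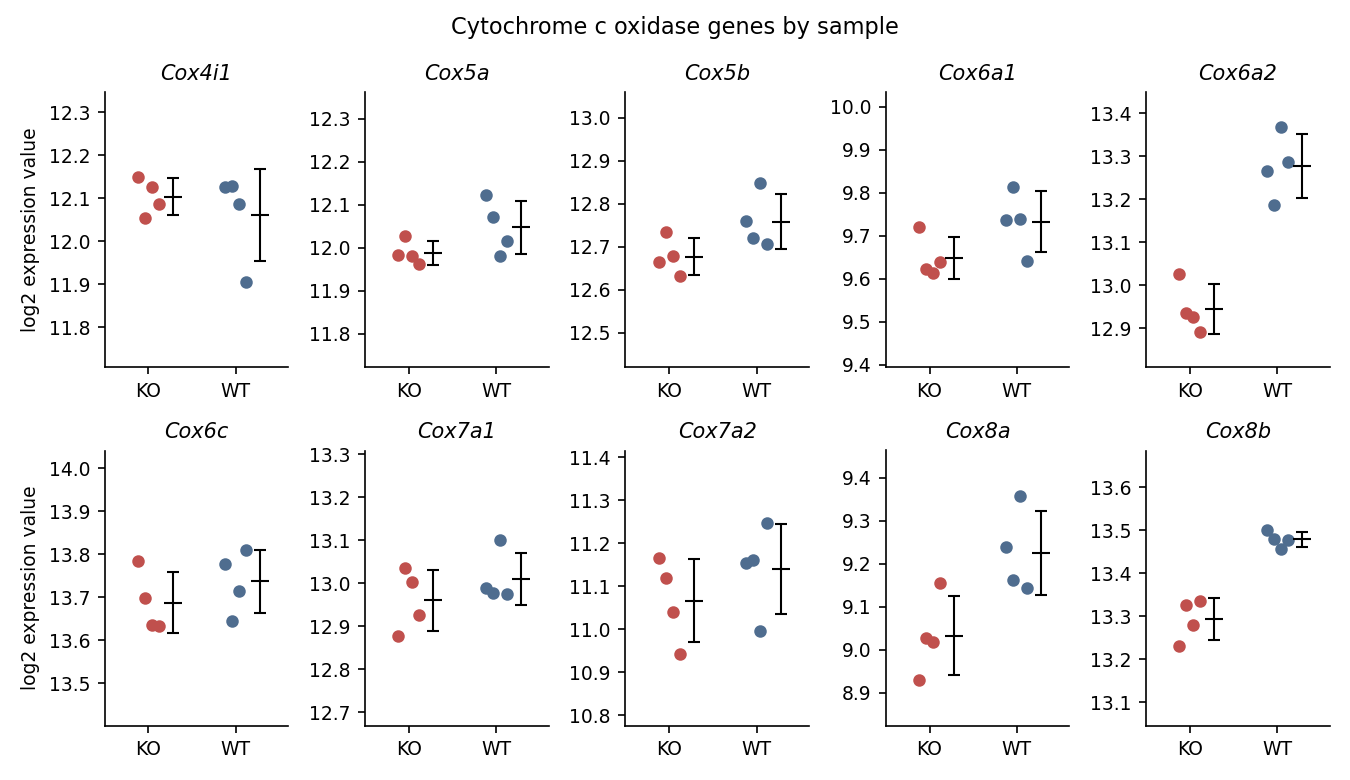
Log2 expression value of each of the 10 genes in the 4 KO samples (red) and 4 WT samples (blue), with the mean and SD in black; every panel spans the same height in log2 units. For Cox6a2 and Cox8b each KO sample lies below each WT sample, and in the other 8 genes the genotypes overlap.

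Among the subunits with no muscle form here, the genotypes overlapped throughout. Cox4i1 encodes the common form of subunit 4, which joins the complex early and binds adenine nucleotides. Its values were 12.15, 12.05, 12.13 and 12.09 in KO, against 12.13, 12.13, 12.09 and 11.90 in WT, so WT sample 4 was low and the rest lay together. It is the single gene of the 10 with a higher KO mean, by 0.04 (SE 0.064, limma adjusted p = 0.916), and without WT sample 4 the difference was -0.01.

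Cox5a encodes a subunit on the matrix side that assembles early together with subunit 4. It stood at 11.98, 12.03, 11.98 and 11.96 in KO, against 12.12, 12.07, 11.98 and 12.01 in WT. KO sample 2 lay above WT samples 3 and 4. The difference of -0.06 (SE 0.055, limma adjusted p = 0.852) was about as large as the SD within WT, 0.063. Cox5b, a zinc-binding subunit that also faces the matrix, read 12.66, 12.73, 12.68 and 12.63 in KO, against 12.76, 12.72, 12.85 and 12.71 in WT. KO sample 2 lay above WT samples 2 and 4, and the difference was -0.08 (SE 0.056, limma adjusted p = 0.782). A second Cox5b probe set gave -0.06 (SE 0.054).

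Cox6c, a small subunit with a single membrane-spanning helix, had the values 13.78, 13.70, 13.64 and 13.63 in KO, against 13.78, 13.65, 13.72 and 13.81 in WT. Its difference was -0.05 (SE 0.061, limma adjusted p = 0.889), and its second probe set gave -0.03 (SE 0.056). For these 4 genes the 95% intervals reached no lower than -0.20 and no higher than 0.18.

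The muscle form of subunit 6a takes part in regulation by adenine nucleotides. Cox6a2 read 13.03, 12.94, 12.93 and 12.89 in KO, against 13.26, 13.19, 13.37 and 13.29 in WT. The highest KO sample was 0.16 below the lowest WT sample, and the difference of -0.33 (SE 0.060, 95% interval -0.46 to -0.20) was several times the SD within either genotype, 0.057 in KO and 0.074 in WT. By its unadjusted p of 0.000133 it ranked 34th among the 19938 genes, and 0.231% of all genes had an adjusted p under 0.1, as Cox6a2 had. It was lower in KO under each of 17 alternative settings, between -0.36 and -0.30. Its adjusted p passed in 2 of them, at 0.00834 with a trended and robust variance model and at 0.0490 with dim genes left out. In the others it did not pass, and the highest limma adjusted p was 0.233, without WT sample 3.

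Cox6a1, the ubiquitous form of the same subunit, read 9.72, 9.62, 9.61 and 9.64 in KO, against 9.74, 9.81, 9.74 and 9.64 in WT. KO sample 1 lay above WT sample 4, so the genotypes overlapped. Its difference was -0.08 (SE 0.058, limma adjusted p = 0.783).

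To ask whether the muscle form moved differently from its partner, the ubiquitous form was subtracted from the muscle form on each array. This subtraction cancels a shift common to all log2 values of an array, but not scaling that depends on signal. Cox6a2 minus Cox6a1 was 3.30, 3.31, 3.31 and 3.25 in KO, against 3.53, 3.37, 3.63 and 3.64 in WT. No KO sample reached a WT sample, and the KO samples lay closer together (SD 0.028) than the WT samples (SD 0.125). The contrast was -0.25, lower in KO, with an exact two-sided permutation p of 0.0286, the smallest possible. After Benjamini-Hochberg adjustment over the 3 isoform pairs it was 0.0857, which did not pass. A pair that separates alone cannot go below that value with 4 against 4 samples. The adjusted value therefore cannot decide whether this pair differed.

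Subunit 7a lies at the membrane and takes part in joining complexes into dimers and supercomplexes. Cox7a1, its muscle form, read 12.88, 13.03, 13.00 and 12.93 in KO, against 12.99, 12.98, 13.10 and 12.97 in WT, with samples interleaved. The difference was -0.05 (SE 0.060, 95% interval -0.18 to 0.08, limma adjusted p = 0.885). Cox7a2, the ubiquitous form, read 11.17, 11.12, 11.04 and 10.94 in KO, against 11.15, 11.16, 11.00 and 11.25 in WT. That difference was -0.07 (SE 0.071, limma adjusted p = 0.857). Cox7a1 minus Cox7a2 averaged 1.89 ± 0.12 in KO and 1.87 ± 0.16 in WT (SD, n = 4 each), a contrast of 0.02 with an exact permutation p of 0.857 (0.943 adjusted over the 3 pairs).

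Subunit 8 is the smallest membrane subunit. Cox8b, the muscle form and also a marker of brown fat, read 13.23, 13.33, 13.28 and 13.34 in KO, against 13.50, 13.48, 13.46 and 13.48 in WT. The WT samples were close together (SD 0.018) and each lay above each KO sample (SD 0.049). The difference was -0.19 (SE 0.053, 95% interval -0.30 to -0.07). Its unadjusted limma p was 0.00443, and its adjusted p of 0.338 became 0.0427 with the trended and robust variance model. That was the only 1 of the 17 alternatives in which it passed. The highest limma adjusted p was 0.608, without KO sample 1.

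Cox8a, the ubiquitous form, read 8.93, 9.03, 9.02 and 9.16 in KO, against 9.24, 9.16, 9.36 and 9.14 in WT. KO sample 4 lay just above WT sample 4, and otherwise the KO samples were below the WT samples. The difference was -0.19 (SE 0.069, 95% interval -0.34 to -0.04). Its unadjusted limma p was 0.0165. Cox8b minus Cox8a averaged 4.26 ± 0.06 in KO and 4.25 ± 0.11 in WT (SD, n = 4 each). That contrast was 0.01, with an exact permutation p of 0.943 (0.943 adjusted over the 3 pairs). Over the 10 genes, groups that did not overlap with KO below WT occurred for 2 genes, Cox6a2 and Cox8b, against 1.99% of all genes.

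**Figure D2:**
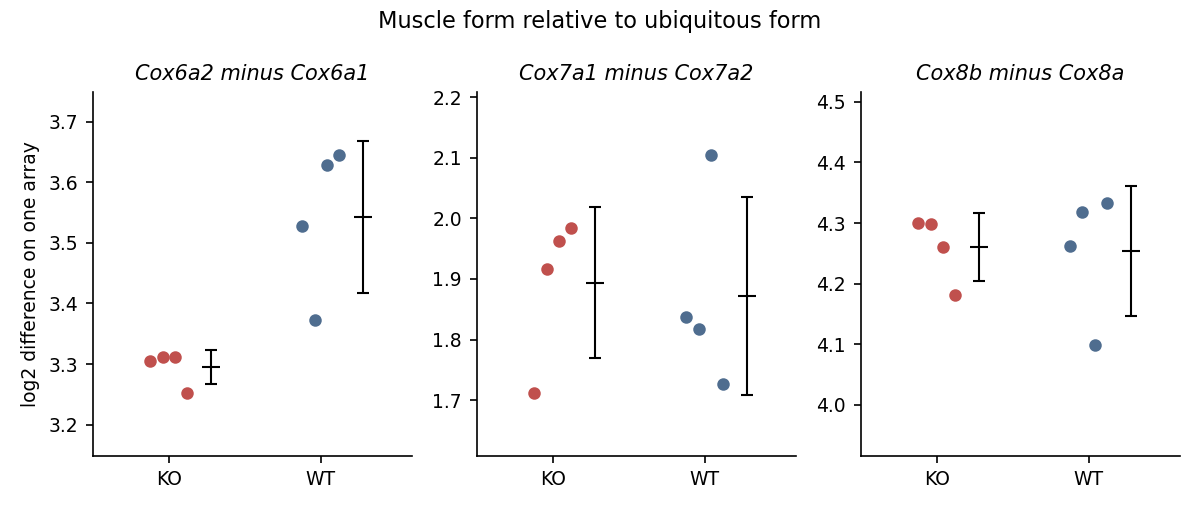
Muscle form minus ubiquitous form on each array (log2 difference) for the 3 isoform pairs in KO (red) and WT (blue) samples, with mean and SD in black. The genotypes separate for Cox6a2 minus Cox6a1 and overlap for the other pairs.

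**Figure D3:**
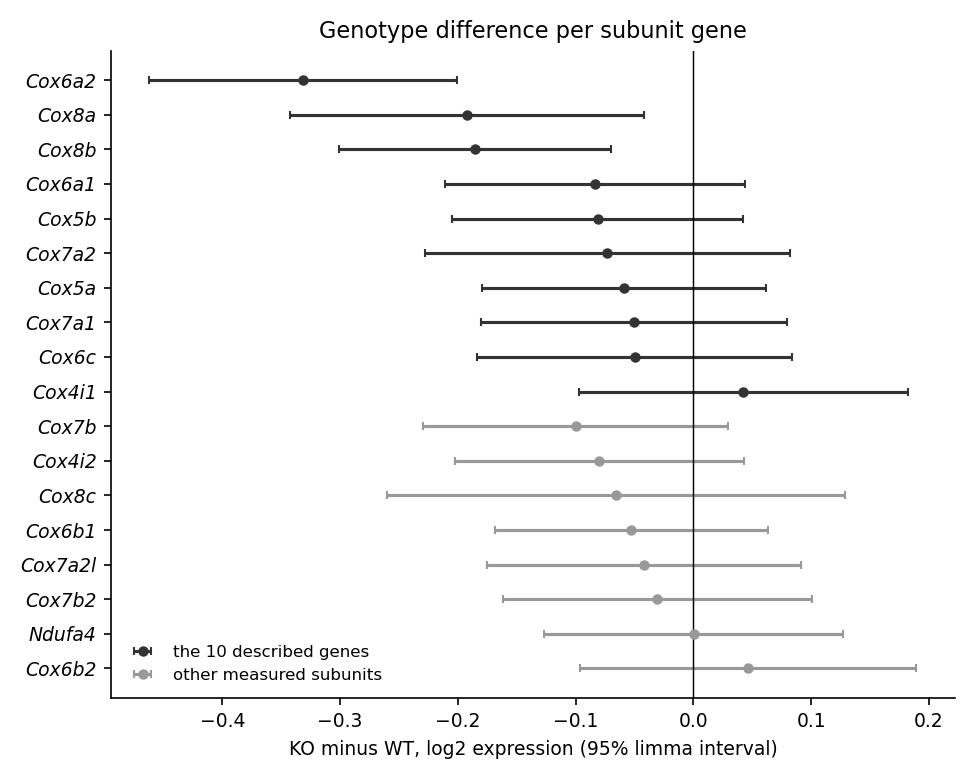
KO minus WT difference in log2 expression with its 95% limma interval for the 10 genes (black) and for 8 other measured subunit genes (grey). The intervals of Cox6a2, Cox8a and Cox8b lie below 0 before adjustment over all genes, and those of the other 15 genes span 0.

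The RefSeq promoter table (GRCm38.p6) held a window for 7 of the 10 genes: Cox5a, Cox5b, Cox6a1, Cox7a1, Cox7a2, Cox8a and Cox8b. The 250 bases before the annotated start are printed for subunits 7a and 8, because these are the pairs in which the muscle and the ubiquitous form can be set side by side. They are given 5′ to 3′ on the gene's strand, and capitals mark CG dinucleotides.
Cox8b (chr7:140900447-140900696, minus strand): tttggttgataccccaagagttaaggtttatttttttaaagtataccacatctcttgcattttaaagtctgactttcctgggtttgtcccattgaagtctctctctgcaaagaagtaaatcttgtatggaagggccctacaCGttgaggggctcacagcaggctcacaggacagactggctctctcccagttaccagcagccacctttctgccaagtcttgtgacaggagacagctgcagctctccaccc
Cox8a (chr19:7217617-7217866, minus strand): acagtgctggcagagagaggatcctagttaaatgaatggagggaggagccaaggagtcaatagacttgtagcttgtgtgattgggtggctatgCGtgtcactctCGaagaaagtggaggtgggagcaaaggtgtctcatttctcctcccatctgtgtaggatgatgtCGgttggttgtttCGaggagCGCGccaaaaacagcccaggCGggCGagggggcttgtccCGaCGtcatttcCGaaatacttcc
Cox7a1 (chr7:30183921-30184170, plus strand): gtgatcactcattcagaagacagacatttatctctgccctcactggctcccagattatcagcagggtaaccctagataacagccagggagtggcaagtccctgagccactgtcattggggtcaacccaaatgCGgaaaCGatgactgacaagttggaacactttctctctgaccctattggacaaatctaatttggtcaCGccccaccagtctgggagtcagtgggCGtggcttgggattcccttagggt
Cox7a2 (chr9:79759854-79760103, minus strand): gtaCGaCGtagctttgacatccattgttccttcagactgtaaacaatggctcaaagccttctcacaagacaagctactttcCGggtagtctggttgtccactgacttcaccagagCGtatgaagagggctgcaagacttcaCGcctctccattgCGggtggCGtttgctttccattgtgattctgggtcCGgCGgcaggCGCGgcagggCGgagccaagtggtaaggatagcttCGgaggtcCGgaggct

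The window of Cox7a2 lies inside the annotated span of its gene (chr9:79755241-79771422), and so does that of Cox5a (chr9:57517328-57532427). For these genes the window precedes an inner transcript start, and what follows holds for that start only. The muscle forms had fewer CG dinucleotides in these windows than their partners. Cox8b had 1 and Cox7a1 had 4, against 11 for Cox8a and 14 for Cox7a2, and the median of all 32851 windows was 6. The windows of Cox5a, Cox5b and Cox6a1 had 26, 22 and 26. The pattern CTANNNNTAG, a loose form of the MEF2 core, was searched on both strands with any base in its 4 middle positions. It occurred once, in Cox5b, where it read CTACTTTTAG, and in 3.20% of all windows. A match to so loose a pattern need not be a MEF2 site. The E-box CAGCTG, a sequence bound by myogenic factors, occurred in Cox8b alone among the 7 genes and in 13.0% of all windows. The NRF1 core TGCGCA was present in Cox5b and Cox6a1 and in 6.43% of all windows, and the ETS core CCGGAAG, which GABP can bind, in Cox6a1 and in 6.91%. The oestrogen-related receptor core AAGGTCA and the TATA box TATAAA were found in 0 of the 7 windows, against 4.08% and 12.4% of all windows. The Sp1 box GGGCGG was found in Cox5a, Cox6a1 and Cox7a2, against 32.7% of all windows. The muscle forms Cox6a2, Cox7a1 and Cox8b all lie on chromosome 7, and none of the 10 genes lies on chromosome 11, which carries Hdac5.

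The rest of the enzyme showed no gene past the threshold. Of the other subunit genes, 8 of 12 were measured, 0 changed in either direction by limma (0 also at an unadjusted p under 0.05), and their differences ran from -0.10 to 0.05 with a median of -0.05. Cox7b2 (5.27 in KO, 5.30 in WT), Cox6b2 (7.10 and 7.05) and Cox8c (7.57 and 7.63) averaged below every array median. A change could go unseen at such signals. Cox7b, a membrane subunit, averaged 12.96 ± 0.09 in KO and 13.06 ± 0.03 in WT (SD, n = 4 each), a difference of -0.10 (SE 0.059, limma adjusted p = 0.737). Cox4i2, the lung form of subunit 4 that responds to low oxygen, differed by -0.08 (SE 0.056), and Ndufa4, which copurifies with complex IV, by 0.0003 (SE 0.058). The mitochondrially encoded subunits and Cox7c were not analysed here.

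No assembly factor of the enzyme passed either. Of 27 listed, 23 were measured and 0 changed over all genes in limma. At an unadjusted p under 0.05, 3 of the 23 were lower and 1 was higher (1 and 1 after centring on array medians), against 3.18% of all genes lower and 4.72% higher. The mean was higher in KO for 15 of the 23 and lower for 8 (10 lower after quantile normalization and 7 after centring), against 48.6% of all genes lower. The median difference was 0.03. Cox17, the chaperone that brings copper to the enzyme, averaged 11.28 ± 0.11 in KO and 11.51 ± 0.10 in WT (SD, n = 4 each), and each KO sample lay below each WT sample (difference -0.23, SE 0.072, limma adjusted p = 0.421). Cox14, which helps to make and keep the first core subunit, differed by -0.15 (SE 0.062). Coa3, its partner in that step, differed by 0.16 (SE 0.067), with each KO sample above each WT sample.

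The neighbouring complexes had no gene past the threshold. Of 14 genes of complexes II and III and cytochrome c, 12 had a lower KO mean and 0 passed over all genes in limma. Their median difference was -0.04 (3 lower and 0 higher at an unadjusted p under 0.05, and 1 lower after centring on array medians). Quantile normalization left 10 with a lower mean and centring left 11. Sdhb, the iron-sulphur subunit of succinate dehydrogenase, differed by -0.14 (SE 0.055), and the complex III subunits Uqcr11 and Uqcr10 by -0.21 (SE 0.087) and -0.14 (SE 0.063). Of 14 ATP synthase genes measured, 8 had a lower mean, 0 passed in limma (0 lower and 1 higher at an unadjusted p under 0.05), and the median was -0.01, a sign that turned with quantile normalization (0.02) and centring (0.002). Atp5k, the higher one, differed by 0.15 (SE 0.067). Among 18 transcription factors and coactivators of respiratory genes, 9 had a lower mean (7 after centring on array medians), and 0 passed in limma. Esrrg, an orphan nuclear receptor abundant in oxidative muscle, differed by -0.18 (SE 0.062, the single one at an unadjusted p under 0.05, 0.0126 in limma). Nrf1, the nuclear respiratory factor, differed by -0.10 (SE 0.054), and the coactivator Ppargc1a by 0.06 (SE 0.066).

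Slow fibre genes had lower KO means beside Cox6a2 and Cox8b. Of 11 measured, 0 passed over all genes in limma, and the median difference was -0.54. At an unadjusted p under 0.05, 9 were lower and 1 higher, against 3.18% of all genes lower and 4.72% higher. Tnnc1, the slow and cardiac troponin C, averaged 10.28 ± 0.22 in KO and 11.04 ± 0.27 in WT (SD, n = 4 each), a difference of -0.76 (SE 0.132, limma adjusted p = 0.0763). Myl3 differed by -0.61 (SE 0.125) and Tnni1 by -0.71 (SE 0.158). Casq2 went the other way, by 0.35 (SE 0.119), and Mb, the brightest of the list, differed by -0.04 (SE 0.055). The mean of the 11 genes was 11.11, 11.44, 11.65 and 11.51 in KO, against 11.66, 11.97, 12.02 and 11.75 in WT. KO sample 1, the lowest in slow fibre genes, was the highest KO sample in Cox6a2 and the lowest in Cox8b. WT sample 1, the lowest WT sample in slow fibre genes, was the highest WT sample in Cox8b. WT sample 3, the highest of all in slow fibre genes, was the highest of all in Cox6a2 and the lowest WT sample in Cox8b. The part of slow fibre content in the subunit differences was not tested, and in whole muscle fewer cells of a type and less RNA per cell cannot be told apart. Of the 14 fast fibre genes, 14 had a lower KO mean, against 48.6% of all genes. Their differences were -0.05 to -0.01, and 0 had an unadjusted p under 0.05 in limma. After quantile normalization 8 of the 14 had a lower mean, and after centring on array medians 11 did.

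Cox8b and Cox7a1 are also expressed in brown fat. Ucp1, the defining brown fat gene, averaged 6.59 ± 0.05 in KO and 6.57 ± 0.09 in WT (SD, n = 4 each), and Cidea 6.85 ± 0.06 in KO and 6.71 ± 0.25 in WT. The mean of the 7 brown fat markers lay between 7.62 and 7.71 in KO and between 7.60 and 7.69 in WT, and 0 of the 7 had an unadjusted p under 0.05 in limma. The 7 general adipocyte markers averaged 8.89 to 9.22 in KO and 8.24 to 9.88 in WT, with 0 at an unadjusted p under 0.05. The part of fat cells in the subunit differences was not tested.

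Markers of other cells also differed between the samples. Of 9 macrophage markers, 7 were higher at an unadjusted p under 0.05 in limma and 0 over all genes, with list means of 8.35 to 8.68 in KO and 8.08 to 8.39 in WT. Of 8 fibroblast markers, 4 were higher at an unadjusted p under 0.05 and 0 over all genes, with means of 10.38 to 10.80 in KO and 10.27 to 10.59 in WT. Of 7 tendon markers, 4 were lower at that level and 0 over all genes, with means of 8.84 to 9.19 in KO and 9.09 to 9.46 in WT. Heart markers lay at 7.76 to 7.98 in KO and 7.93 to 8.01 in WT, and 1 of 8, Tnnt2, was lower at an unadjusted p under 0.05. The 4 Schwann cell markers measured averaged 8.37 to 8.66 in KO and 8.58 to 8.91 in WT, with 1 lower at that level, Mbp. The 7 endothelial markers and the 2 red blood cell genes had none at that level. The part of these cells in the subunit differences was not tested.

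**Figure D4:**
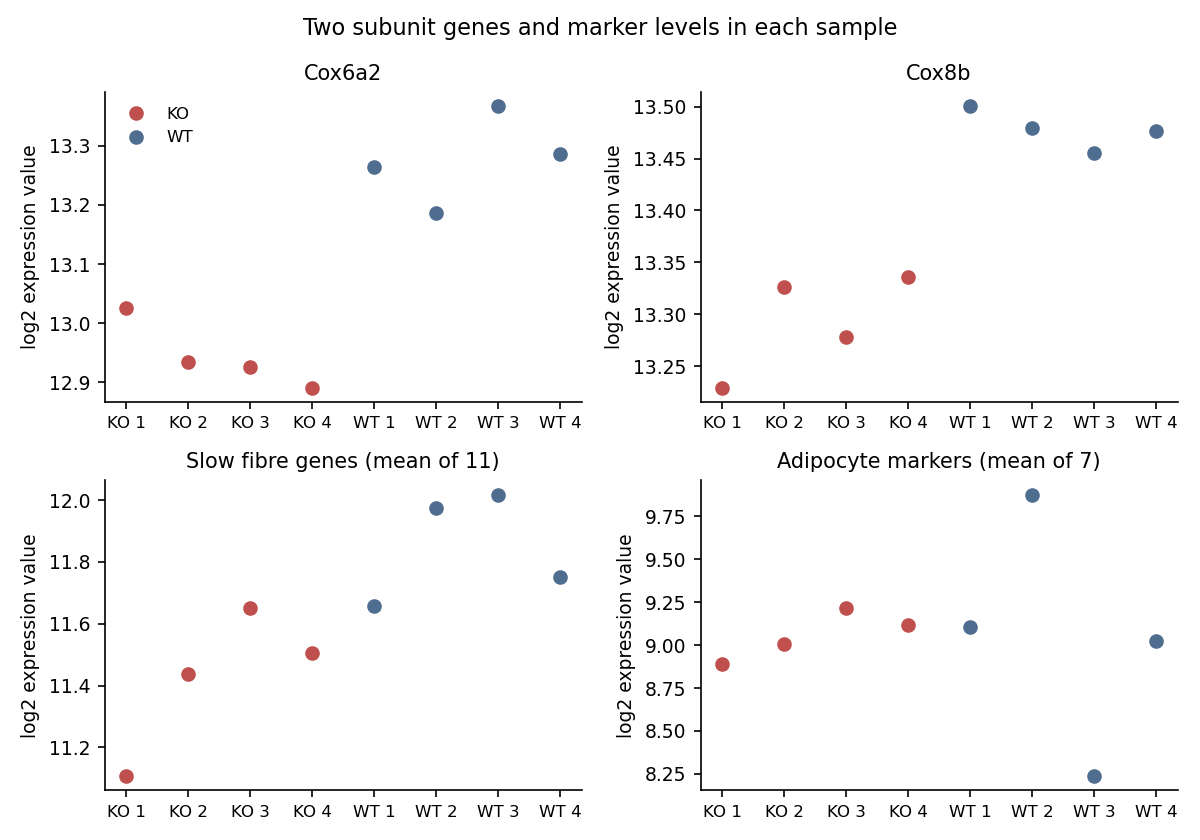
Log2 values of Cox6a2 and Cox8b (top) and mean log2 value of 11 slow fibre genes and 7 adipocyte markers (bottom) in each KO (red) and WT (blue) sample. KO sample 1 has the lowest slow fibre mean, 11.11, and among KO samples the highest Cox6a2 value, 13.03, and the lowest Cox8b value, 13.23. WT sample 3 has the highest slow fibre mean, 12.02, the highest Cox6a2 value, 13.37, and among WT samples the lowest Cox8b value, 13.46. The adipocyte mean of WT samples ranges from 8.24 to 9.88.

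The genes closest in profile to Cox6a2 were found by the root mean square difference over the 8 arrays between values centred on each gene's mean. They were the gene model Gm10825 at 0.059, Banf1, a DNA-binding protein of the nuclear envelope, at 0.059, Bckdhb, a subunit of branched-chain keto acid dehydrogenase, at 0.060, Tmem179b at 0.067 and the chemokine receptor Cxcr6 at 0.070. Of these, Bckdhb had changed over all genes, by -0.42 (SE 0.064, limma adjusted p = 0.0439). Among the other subunit genes of the 10, Cox8b stood nearest to Cox6a2, at 0.110, and ranked 130th of the 19937 other genes. For Cox8b the closest were C1ql3 at 0.027, the proline dehydrogenase gene Prodh at 0.029, Cystm1 at 0.030, Pgc at 0.031 and Pla2g2f at 0.033. Cxcr6 (6.36 in KO, 6.60 in WT), C1ql3 (7.09 and 7.26), Pgc (6.41 and 6.57) and Pla2g2f (6.70 and 6.89) averaged below every array median. Their signal may be background, so their likeness need not reflect transcripts of muscle. Of the 10 genes, Cox8a was nearest to Cox8b, at 0.074, and ranked 500th of the 19937 other genes. Seen from Cox8b, Cox6a2 ranked 4603rd, at the same 0.110.

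By array, the 10 genes together averaged 11.95, 11.96, 11.93 and 11.92 in KO, against 12.07, 12.03, 12.06 and 12.02 in WT. KO sample 4 held the lowest value of 5 of the 10 genes and WT sample 3 the highest of 4. In WT sample 1 each of the 10 genes was above its mean over the 8 arrays, and in WT sample 4 this held for 5.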

How the data were processed

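Total RNA (150 ng per array, RNA integrity number above 8 per the labels) from 8 gastrocnemius samples was hybridised to Affymetrix mouse gene arrays. The deposited log2 values, 1 per probe set and array, were made by the authors with Affymetrix Expression Console 4.0, per the submitters' processing notes; the sources used here name no method for background correction or normalization, and the values themselves showed a log2 scale. Of 35556 probe sets, 21789 carried 1 symbol in the platform annotation, 1621 several and 12146 none, which gave 19938 genes. The values were not normalized again. KO minus WT was fitted with genotype as the only term in limma 3.58.1 (lmFit, eBayes; R 4.3.3), adjusted by Benjamini-Hochberg over all genes, called at 0.05; SE is limma's moderated standard error. Isoform contrasts used exact two-sided permutation tests over the 70 arrangements of the arrays. The number of arrays limits the precision. In 10 simulations with 200 changed genes among the 19938, the fit recovered 35.0% of KO minus WT changes of 0.3 and 84.2% of changes of 0.5. The 10 genes, the gene lists and the rule for named genes (all 10, the members of each list with the smallest p or highest signal, and the 5 likest profiles) were chosen with earlier results of these data known. Casq2 was named besides, as the 1 slow fibre gene with a higher KO mean. Alternatives were 2 normalizations, the variance model, array weights, a filter on dim genes, probe set choices, a replicate block and omitted arrays. Promoter windows and gene positions came from RefSeq tables of GRCm38.p6. Plots were drawn with matplotlib 3.10.9.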

Additional observations from a re-analysis of the deposited data

Results flagged for a closer look

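Chance alone sets 1 sample apart in about 1 in 20 groups of 4 by the criterion used, and 28 groups were examined. Cox7a1 in WT sample 3 stood at 13.10, above the other WT samples at 12.97 to 12.99. Cox6a2 minus Cox6a1 in KO sample 4 was 3.25, below the other KO samples at 3.30 to 3.31. Hdac5 in KO sample 4 was 8.39, above the other KO samples at 8.31 to 8.32, while the lowest WT sample stood at 9.76.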

How the results depend on the processing

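Cox6a2, Cox8b, Cox8a, Cox5a, Cox5b, Cox6a1, Cox6c, Cox7a1 and Cox7a2 were lower in KO under all 17 alternatives, and Hdac5 fell and passed under all 17. The count of the 10 genes past the threshold was 2 with a trended and robust variance model and 1 with dim genes left out, both fits with a smaller SE or fewer genes tested, and 0 in the other 15 alternatives. The number of changed genes, 13 as reported, was 23 after quantile normalization, 44 with the trended and robust model, 31 with array weights, 36 with dim genes left out, 28 over all probe sets, and 5 without both KO sample 1 and WT sample 4. It ranged from 5 to 20 with 1 sample left out. The labels state nothing else that ties samples with the same number in their titles. The correlation of their deviations ran from -0.15 to 0.34, and 2 of 4 pairs exceeded 0.1. Between KO and WT samples with different numbers it ran from -0.33 to 0.20. Whether samples with the same number shared a batch was not tested. With that number as a replicate block 30 genes changed, 0 of the 10 passed, and Cox6a2 had an adjusted p of 0.0812. Cox4i1 reversed to -0.025 without both KO sample 1 and WT sample 4, and ranged from -0.0098 to 0.065 with 1 sample left out. With 1 sample left out, Cox7a1 minus Cox7a2 ranged from -0.026 to 0.10 and Cox8b minus Cox8a from -0.045 to 0.033, so neither has a settled sign; the cause was not tested. Cox6a2 minus Cox6a1 lay between -0.30 and -0.21 in its 12 alternatives. Centring or quantile normalization moved the median of all genes to 0.02 at most.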
